A study of Arabidopsis thaliana with 6 samples.

Results

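The late anthocyanin pathway genes described here are DFR (AT5G42800) and UF3GT (AT5G54060) on chromosome 5, AT5MAT (AT3G29590) on chromosome 3 and AT4G14090 on chromosome 4 of Arabidopsis thaliana. They were chosen by gene identity: each probe set whose single gene in the probe-to-gene table was one of the 4 was taken, which gave 4 probe sets, 1 per gene, of 38310 that were not controls. The genes were picked with earlier results of these data known. Counts, medians and ranks of the 4 genes beside all probe sets are therefore descriptions only. The table named 16542 genes with a probe set of their own. All 4 genes passed the filter on dim signals and were tested.

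RNA came from cotyledons of wild-type seedlings (WT, 6-day-old, grown at 22 °C in continuous light) grown in VISUAL, a culture method that turns mesophyll cells of leaves and cotyledons into xylem and phloem cells. Every medium held the auxin 2,4-D (1.25 mg/L), the cytokinin kinetin (0.25 mg/L) and bikinin (10 µM), which blocks GSK3-like kinases and thereby activates the brassinosteroid pathway. The groups were 5% sucrose at 0, 24 and 48 h and 5% glucose at 0, 24 and 48 h, each measured on 1 array without replicates. The sugars are compared because the study asks how the type of sugar affects vascular cell differentiation. Times are taken from the sample titles. A further time entry conflicted with the title for 5 of the 6 arrays: it read 34 h for glucose 24 h, and 72 h for glucose 48 h and for all 3 sucrose arrays.

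Anthocyanins are the red to purple flavonoid pigments of leaves and stems, made from phenylalanine in the cytosol and stored in the vacuole. The early enzymes of the pathway also serve flavonols, whereas the late steps lead to anthocyanins and proanthocyanidins, and the late genes are switched on together by complexes of MYB, bHLH and WD40 proteins. Sugars, sucrose above all, are known to raise anthocyanin genes in Arabidopsis seedlings. DFR encodes dihydroflavonol reductase, the first enzyme on the branch to anthocyanidins. AT4G14090, for which the gene tables give no symbol, encodes an anthocyanin glucosyltransferase. UF3GT, also listed as UGT79B1, belongs to the UDP-glycosyltransferases, which attach sugars to the pigment, and AT5MAT encodes a malonyltransferase that acylates the sugar.

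The cotyledon label was checked with markers. Of 6 green-tissue genes 4 had a probe set, and PSAN, PRK, LHCB4.2 and PSAE-1, genes of photosynthesis, read between 9.62 and 11.84 on the log2 scale on the 0 h arrays. Of 4 root genes 2 had a probe set, with 4.37 to 5.60 at 0 h. In culture all 4 green-tissue genes fell (medians -4.77 at 24 h and -5.09 at 48 h against 0 h). The root gene PYK10, a beta-glucosidase, rose by 1.81 ± 0.37 at 48 h (adjusted p = 0.015 in limma). At 24 h PYK10 differed by 0.48 ± 0.37, with 4.35 in sucrose and 7.04 in glucose. The root gene EXPA7, an expansin, differed by -0.18 ± 0.17 at 24 h and -0.11 ± 0.17 at 48 h (adjusted p = 0.42 and 0.64 in limma). EXPA7 was at the signal floor, set out below, on 1 of 2 arrays at 0 h, 2 of 2 at 24 h and 1 of 2 at 48 h. Its differences thus set mostly floor against floor. Of all tested probe sets, 44% were called at 24 h (19.8% lower) and 42% at 48 h (19.9% lower). In whole cotyledons fewer cells of a type and less RNA per cell cannot be told apart. No seed or epidermis gene of the lists (4 each) had a single-gene probe set, so neither could be checked. The arrays differed in background: the median of 23 background control probe sets was 5.37, 4.64 and 4.52 (deposited log2 signal) in sucrose at 0, 24 and 48 h and 5.88, 4.76 and 5.10 in glucose. Its part in the results was not tested. Signals given below are log2 values after scaling the arrays to a common trimmed mean, and values below 4.90, the 40th percentile of all arrays pooled, count as at the floor.

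All 4 genes had the same course: low at 0 h, highest at 24 h and lower again at 48 h, with sucrose above glucose at both cultured times. DFR, the entry enzyme, read 4.91, 11.25 and 10.17 at 0, 24 and 48 h in sucrose and 5.66, 10.40 and 7.17 in glucose. On a linear scale these are 30.0, 2436 and 1153 units in sucrose and 50.4, 1353 and 144 units in glucose. Both 24 h arrays and the sucrose 48 h array lay far above both 0 h arrays, and the glucose 48 h array lay between.

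Among the glycosyltransferase genes, AT4G14090 read 4.45, 8.40 and 7.05 at 0, 24 and 48 h in sucrose and 5.03, 7.32 and 4.55 in glucose. UF3GT read 4.09, 8.0 and 6.74 in sucrose and 3.72, 7.25 and 4.91 in glucose. For both genes the glucose 48 h array was near or below the floor while the sucrose 48 h array stayed above it. AT5MAT, the malonyltransferase gene, read 5.63, 8.06 and 6.98 in sucrose and 5.41, 6.85 and 5.01 in glucose. It had the smallest span of the 4 genes, and its glucose 48 h array was its lowest.

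At 0 h the genes read near or below the background controls. The deposited log2 signals in sucrose and glucose were 4.77 and 5.47 for DFR, 4.31 and 4.84 for AT4G14090, 3.95 and 3.53 for UF3GT and 5.49 and 5.22 for AT5MAT. Only AT5MAT in sucrose exceeded the background median of its own array. On the glucose 48 h array, with a background median of 5.10, AT4G14090 (4.50), UF3GT (4.86) and AT5MAT (4.95) were also below it, and DFR (7.11) was above. Fitted differences against these arrays therefore rest on signals not above background. For single arrays, a signal below its array's background median was raised to that median, and the fold is given as "at least". The controls with the most G and C read higher (medians of 7.88 to 9.54), and how the probes of the 4 genes compare with them was not tested.

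**Figure D1:**
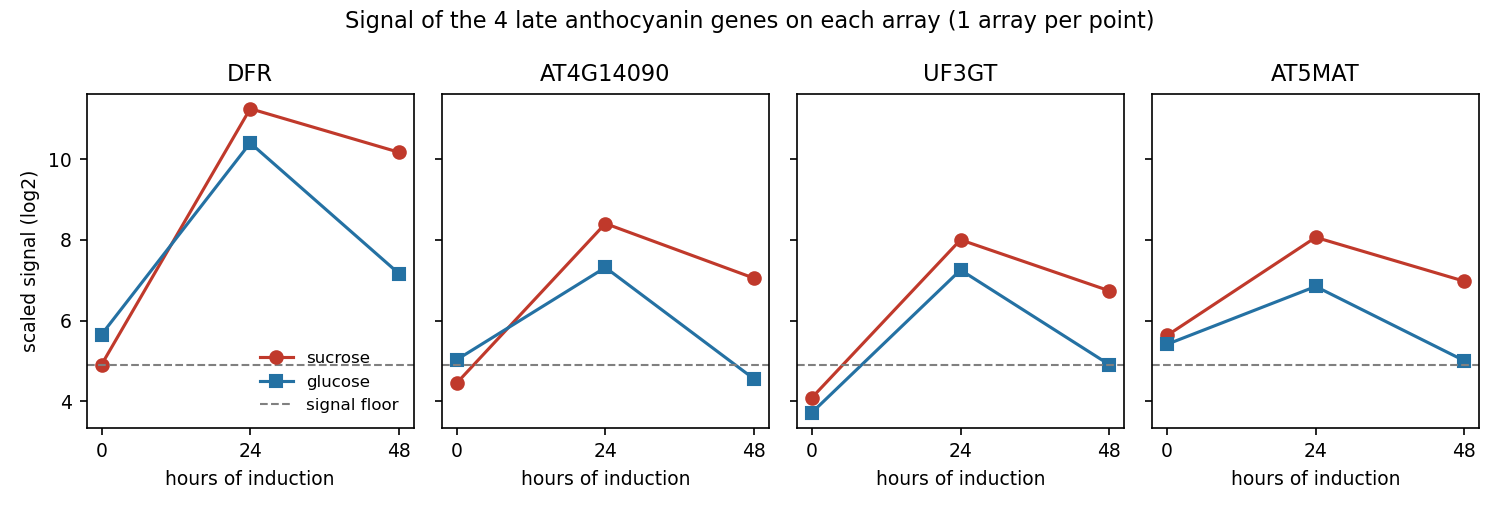
Scaled log2 signal (vertical axis) of each gene against hours of induction, 1 array per point, for sucrose (circles) and glucose (squares); the dashed line is the signal floor at 4.90. Every gene peaks at 24 h in both sugars, and at 48 h the sucrose point lies above the glucose point in all 4 panels.

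The order of the arrays was much alike among the genes. Sucrose 24 h was the highest array for each of them, as it was for 18.8% of all tested probe sets. Glucose 24 h came next and sucrose 48 h after it for DFR, AT4G14090 and UF3GT, while for AT5MAT sucrose 48 h (6.98) and glucose 24 h (6.85) stood the other way round, 0.13 apart. With no replicates the only direct measure of spread is the 0 h pair, whose arrays differed by 0.75 for DFR, 0.58 for AT4G14090, 0.37 for UF3GT and 0.22 for AT5MAT before the floor was set. Glucose 24 h and sucrose 48 h read 10.40 and 10.17 for DFR, 7.32 and 7.05 for AT4G14090 and 7.25 and 6.74 for UF3GT. The 0 h signals were mostly below background, so their pair does not measure the spread at these higher signals. Whether glucose 24 h and sucrose 48 h differed can therefore not be told for any of the 4 genes. Over the 6 arrays the pairwise correlation of the 4 profiles lay between r = 0.873 (AT5MAT with DFR) and r = 0.997 (AT4G14090 with UF3GT), a description of arrays that share scaling and floor. Without the floor AT4G14090 with UF3GT had r = 0.951, and the highest pair was DFR with UF3GT (r = 0.982).

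The first comparison asked how the genes differed after 24 h of induction over both sugars. All 4 rose. DFR averaged 10.83 at 24 h and 5.28 at 0 h, a log2 difference of 5.54 ± 0.56 (SE, 2 arrays against 2; adjusted p = 0.0034 in limma over all tested probe sets). AT4G14090, with 1 of its 0 h arrays (sucrose) at the floor, rose by 2.90 ± 0.36 (adjusted p = 0.0047 in limma). UF3GT, with neither of its 0 h arrays above the floor, rose by 2.73 ± 0.35 against it (adjusted p = 0.0050 in limma). AT5MAT rose by 1.93 ± 0.32 (adjusted p = 0.0092 in limma). With the 0 h signals raised to background, the mean differences were 5.04 for DFR, 2.07 for AT4G14090, 1.84 for UF3GT and 1.6 for AT5MAT. The 4 of 4 called stand beside 24.2% of all tested probe sets that were higher at 24 h, and their median difference of 2.81 beside 0.10 for all tested probe sets. Because the genes were picked with earlier results of these data known, these comparisons describe and test nothing. With any 1 array left out the rise was 4.47 to 6.62 for DFR and 2.36 to 3.43 for AT4G14090. It was 2.19 to 3.27 for UF3GT and 1.56 to 2.31 for AT5MAT. Without either 0 h array or either 24 h array some or all of the 4 calls were lost. Such fits leave 1 array at a time, and calls over all probe sets also fell in each of them, at 48 h as well as at 24 h.

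Within each sugar, single arrays gave the size of the rise. In sucrose DFR was at least 53.4-fold higher at 24 h than at 0 h, AT4G14090 at least 7.44-fold, UF3GT at least 5.62-fold and AT5MAT 5.39-fold. In glucose DFR was at least 20.2-fold higher, AT4G14090 at least 2.37-fold, UF3GT at least 2.28-fold and AT5MAT at least 1.71-fold. Against the floor alone 4 of 4 passed 2-fold in each sugar, where 21.8% of probe sets did so in sucrose and 24.6% in glucose, while in glucose the bound of AT5MAT is under 2-fold. A second limma model kept each cultured array apart. It took its spread from the 0 h pair and from limma's prior over all tested probe sets. None of the 4 passed in either sugar at 24 h (percent of all probe sets called: 0 in sucrose and 0 in glucose). Adjusted p-values in limma were from 0.050 to 0.064 in sucrose and from 0.054 to 0.084 in glucose. At an unadjusted p under 0.05 that model took 10424 probe sets in sucrose and 10655 in glucose.

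At 48 h the mean over both sugars still differed for DFR. DFR averaged 8.67 at 48 h and 5.28 at 0 h, a difference of 3.39 ± 0.56 (SE, 2 arrays against 2; adjusted p = 0.0087 in limma). AT4G14090 differed by 1.01 ± 0.36 (adjusted p = 0.072 in limma), UF3GT by 0.93 ± 0.35 against the floor (adjusted p = 0.084 in limma) and AT5MAT by 0.47 ± 0.32 (adjusted p = 0.29 in limma). So 1 of 4 rose, beside 22.1% of all tested probe sets. The call of DFR was lost when any 1 of the 6 arrays was left out and in the model that keeps each cultured array apart (adjusted p = 0.064 in limma). UF3GT passed without the glucose 24 h array or the sucrose 24 h array, and AT4G14090 without the sucrose 24 h array. UF3GT depended on the floor: with it at the 20th percentile the difference was 1.92 (adjusted p = 0.019 in limma).

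**Figure D2:**
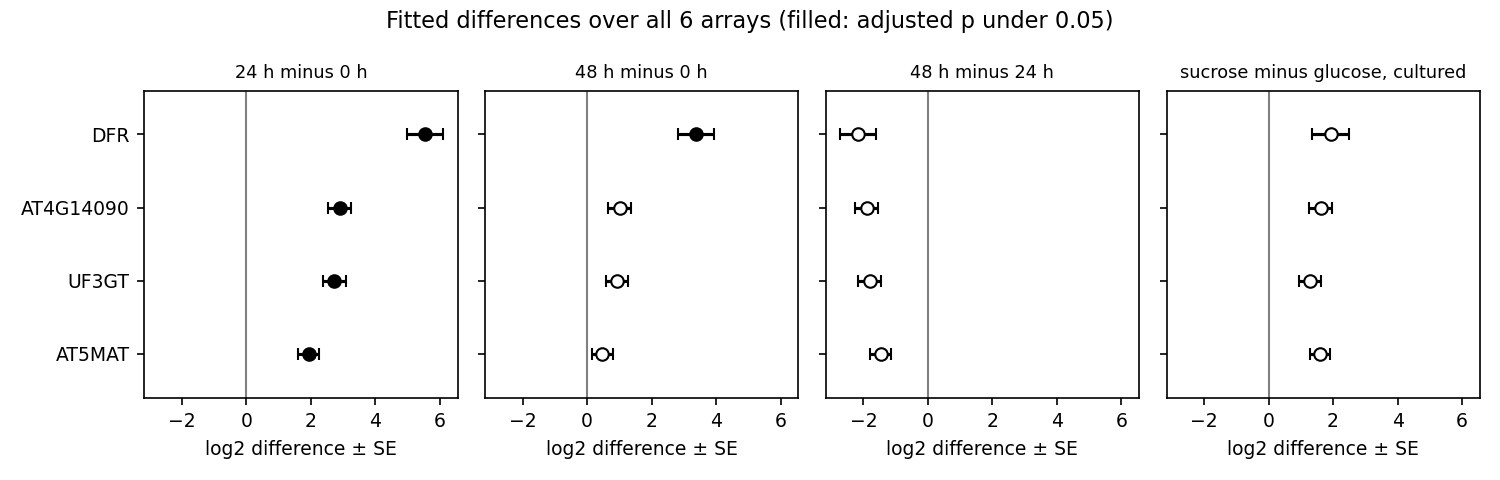
Fitted log2 differences (points) and SE (bars) of the 4 genes in the model over all 6 arrays, with 1 panel per comparison; filled points had an adjusted p under 0.05. All 4 points are filled for 24 h minus 0 h, 1 is filled for 48 h minus 0 h (DFR), and none is filled in the other panels.

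The 48 h mean joins sugars with different values. Between single arrays of sucrose, DFR was at least 25.3-fold higher at 48 h than at 0 h and AT5MAT 2.54-fold. AT4G14090 and UF3GT were higher by at least 2.91-fold and 2.34-fold. In glucose DFR was higher at 48 h by at least 2.14-fold, whereas the other 3 genes were below background at both times, so no fold is given. Against the floor, in sucrose 4 of 4 genes were higher by 2-fold or more, beside 22.8% of probe sets, and in glucose 1 of 4, beside 20% of probe sets. In the model with each cultured array apart, AT4G14090 and UF3GT passed in sucrose at 48 h (log2 differences of 2.09 ± 0.13 and 1.84 ± 0.08; adjusted p = 0.046 and 0.043 in limma), beside 17.1% of all probe sets called and 11.4% called higher, and none of the 4 passed in glucose, where 0% of all probe sets did (9648 at an unadjusted p under 0.05). Of these 2 genes, UF3GT had both 0 h arrays and AT4G14090 had 1 of them at the floor, which narrows the 0 h pair that enters the spread. Both calls were lost with a floor at the 20th percentile (adjusted p = 0.095 and 0.075 in limma) and without the intensity trend (adjusted p = 0.054 for each in limma).

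The second day of culture was compared next. Over both sugars, 48 h minus 24 h was negative for each gene: -2.16 ± 0.56 for DFR, -1.89 ± 0.36 for AT4G14090, -1.80 ± 0.35 for UF3GT and -1.46 ± 0.32 for AT5MAT (log2, SE, 2 arrays against 2). None passed, with adjusted p-values from 0.11 to 0.17 in limma, and 0% of all tested probe sets passed in this comparison. At an unadjusted p under 0.05 limma took 4872 probe sets, among them the 4 genes (p from 0.0028 to 0.011). Of the tested probe sets, 98.9% to 99.8% had a higher value of this difference than each of the 4 genes.

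Between single arrays all 4 genes were lower at 48 h in both sugars, and by more in glucose. In glucose DFR was 9.42-fold lower at 48 h than at 24 h, AT4G14090 at least 4.50-fold, UF3GT at least 4.31-fold and AT5MAT at least 3.25-fold. In sucrose DFR was 2.11-fold lower, AT4G14090 2.56-fold, UF3GT 2.40-fold and AT5MAT 2.13-fold. At least 2-fold lower were 4 of 4 in each sugar, where 12.1% of probe sets were so in glucose and 4.66% in sucrose. The values spanned a narrow range among the genes in sucrose, with log2 differences from -1.35 to -1.08. In glucose only that of DFR (-3.24) was measured above background at both times. Neither sugar was tested on its own between these times, and the test of their difference follows with the sugars.

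The sugars were compared over the cultured arrays. All 4 genes were higher in sucrose, and none passed. DFR averaged 10.71 in sucrose and 8.78 in glucose, a difference of 1.93 ± 0.56 (SE, 2 arrays against 2; 95% interval 0.50 to 3.36). The differences were 1.62 ± 0.36 for AT4G14090 (0.72 to 2.52), 1.59 ± 0.32 for AT5MAT (0.78 to 2.41) and 1.29 ± 0.35 for UF3GT (0.41 to 2.17). Their adjusted p-values lay between 0.33 and 0.44 in limma, and 0% of all tested probe sets passed (2613 at an unadjusted p under 0.05). The median of the 4 genes was 1.61, beside 0.01 for all tested probe sets.

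At 24 h the sugar difference was modest. AT5MAT was 2.32-fold and AT4G14090 2.13-fold higher on the sucrose array than on the glucose array, while DFR was 1.80-fold and UF3GT 1.68-fold higher. Thus 2 of 4 were at least 2-fold higher in sucrose, beside 3.48% of probe sets. For DFR the log2 difference was 0.85 at 24 h, and at 0 h sucrose was lower by 0.75. For AT5MAT it was 1.22 at 24 h and 0.22 at 0 h. At 0 h DFR on both arrays and AT5MAT in glucose were below background. These pairs therefore do not measure the spread at 24 h.

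At 48 h the sugars were further apart for every gene. DFR was 8.03-fold higher on the sucrose array than on the glucose array, and only 0.0116% of tested probe sets had a larger difference. AT4G14090 was at least 3.74-fold higher, AT5MAT at least 3.55-fold and UF3GT at least 3.01-fold, each against a glucose signal below background. Higher in sucrose by 2-fold or more were 4 of 4, beside 8.55% of probe sets. The second limma model passed none of the 4 genes at 24 h (adjusted p from 0.34 to 0.81) or at 48 h (adjusted p from 0.14 to 0.28), and 0% of all probe sets passed at either time (2955 and 4472 at an unadjusted p under 0.05). Its 95% intervals at 48 h were 0.14 to 5.87 for DFR, 1.43 to 2.88 for AT4G14090, 1.37 to 2.29 for UF3GT and 0.99 to 2.95 for AT5MAT on the log2 scale. They set 1 array against 1, with a spread from the 0 h pair and limma's prior over all tested probe sets. That pair differs by 0 for UF3GT because both arrays are at the floor. For AT4G14090, with 1 array at the floor, it differs by 0.13, against 0.58 before the floor was set. The floor thus narrows the intervals of both genes.

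The change of the sugar difference between the times equals the 48 h minus 24 h difference in sucrose less that in glucose. It was 2.16 ± 0.81 for DFR (SE, 95% interval -1.89 to 6.20) and 1.08 ± 0.13 for UF3GT (0.43 to 1.73). It was 1.07 ± 0.21 for AT4G14090 (0.04 to 2.09) and 0.75 ± 0.28 for AT5MAT (-0.64 to 2.14). The intervals of UF3GT and AT4G14090 are narrowed by the floor, which set their 0 h pairs 0 and 0.13 apart, against 0.37 and 0.58 before it. None passed (adjusted p from 0.29 to 0.51 in limma), and 0% of all tested probe sets passed (3473 at an unadjusted p under 0.05). The difference between the times was thus larger in glucose for all 4 genes and past the threshold for none, with 3 of the 4 glucose 48 h signals below background. The glucose 48 h array also had a higher background median (5.10) than the sucrose 48 h array (4.52), whose part was not tested. The first limma model has no term for the change of the sugar difference, which therefore enters its spread.

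**Figure D3:**
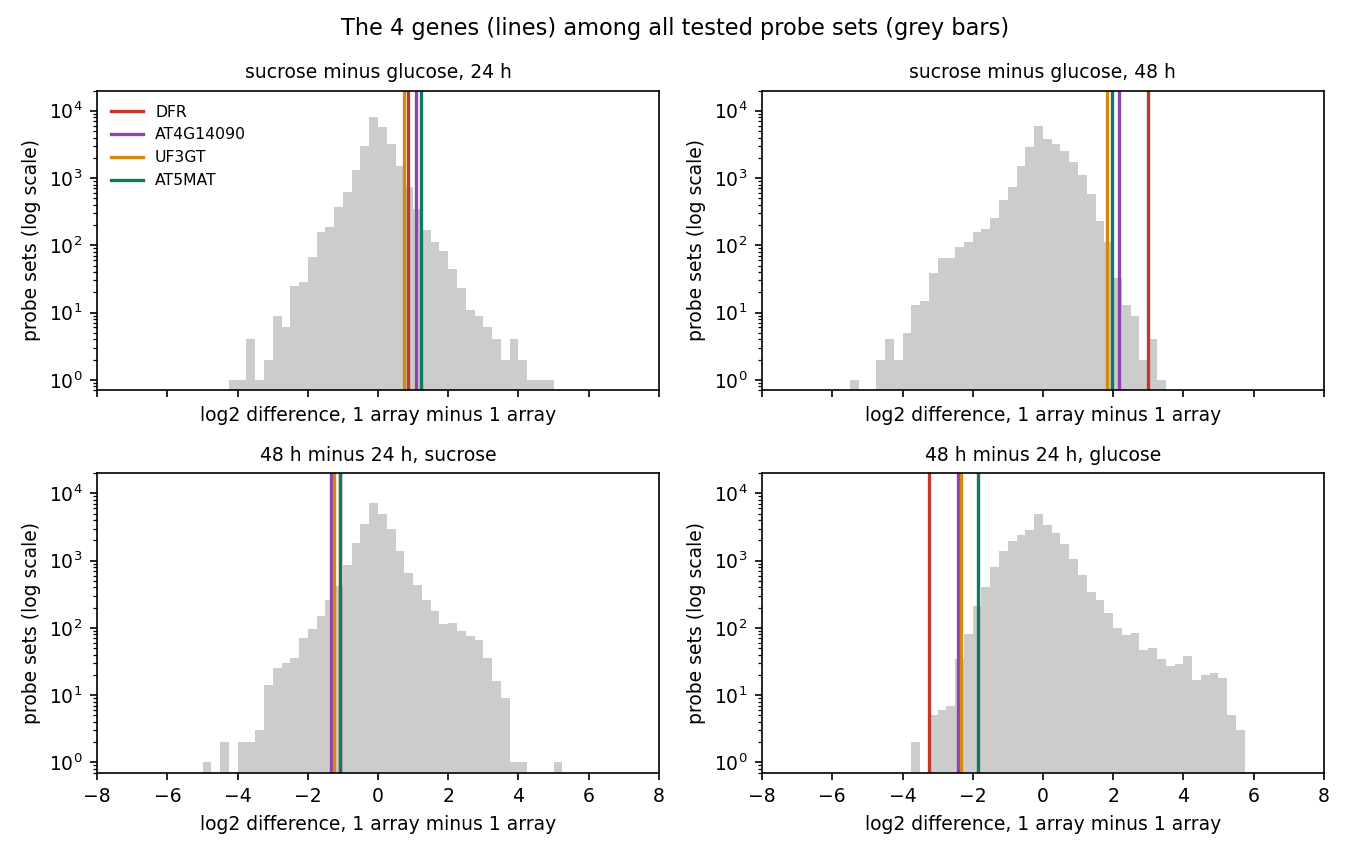
Histograms (grey bars, log-scaled counts) of the log2 difference between 2 single arrays over all 25826 tested probe sets, with the 4 genes as vertical lines. At 48 h the genes lie in the right tail of sucrose minus glucose, DFR at 3.0, and they lie left of -1 in both panels of 48 h minus 24 h.

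How many other probe sets shared this course was counted with a combination of steps put together after the values of the 4 genes were seen, so it describes and tests nothing. At least 2-fold higher at 24 h than at 0 h in both sugars were 17.6% of tested probe sets. At least 2-fold lower at 48 h than at 24 h in both sugars were 1.64%. Both steps were met by 100 probe sets (0.387%), and 29 (0.112%) were also at least 2-fold higher in sucrose than in glucose at 48 h. The 4 genes are among these 29, of which 15 had a single named gene.

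Genes with the most similar course were named by a fixed rule, the highest Pearson r with the mean profile of the 4 genes over the 6 arrays among 2658 other single-gene probe sets that spanned at least 2 log2 units. First came AT2G18010, listed as SAUR10, a small auxin upregulated RNA gene (r = 0.993). It read 4.90 (the floor), 8.76 and 7.63 at 0, 24 and 48 h in sucrose and 4.90 (the floor), 7.84 and 5.75 in glucose. The other 9 were AT3G06680, AT5G08600, AT3G01930, AT3G20240, AT4G30800, AT3G22235, AT4G21140, AT2G18900 and AT1G31835 (r from 0.981 to 0.987). By the distance between centred profiles, 1 of these 10, AT2G18010, was among the 10 nearest.

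Each gene also had its own profiles of highest r. For DFR they were AT2G37600 (r = 0.998), AT3G06680 and AT3G52170. By distance from the centred profile of DFR they ranked only 410, 342 and 230, and each spanned less than DFR. For UF3GT the profiles of highest r were Prx37 (AT4G08770, r = 0.992), a peroxidase gene, then AT3G01930 and AT2G18900. For AT4G14090 they were AT3G01930 (r = 0.987), AT1G31835 and Prx37, and for AT5MAT AT3G28200 (r = 0.993), AT1G31835 and AT4G21903. Prx37 read 4.90 (the floor), 8.02 and 6.30 at 0, 24 and 48 h in sucrose and 4.90 (the floor), 7.20 and 4.90 (the floor) in glucose, which is also the course of UF3GT. The values of r describe 6 arrays that share scaling and floor.

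The rest of the pathway was covered thinly. Of 14 phenylpropanoid and early flavonoid genes 1 had a probe set of its own, of 10 other late anthocyanin genes 4, of 4 flavonol decoration genes 3, of 24 anthocyanin regulators 2 and of 10 sugar response genes 1. Neither the MYB activators nor the bHLH and WD40 partners of the regulator list had one. Of these, 8 genes with 9 probe sets were tested. At 24 h 4 genes rose and none fell, beside 24.2% of all tested probe sets higher and 19.8% lower, and at 48 h 1 rose and 2 fell, beside 22.1% and 19.9%.

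CHIL (AT5G05270), a chalcone isomerase-like gene of the early pathway, was at the floor on both 0 h arrays. It read 7.63 and 6.55 at 24 h in sucrose and glucose, a rise of 2.19 ± 0.29 against the floor (adjusted p = 0.0054 in limma), and 6.55 and 6.13 at 48 h, a rise of 1.44 ± 0.29 (adjusted p = 0.015 in limma). Sucrose was the higher sugar at both times. Both calls were lost without either 0 h array, that at 24 h also without the glucose 24 h array, and that at 48 h also without either 48 h array. In the late anthocyanin list AT1G03495 rose by 1.39 ± 0.35 and AT1G03940 by 1.14 ± 0.30 at 24 h (SE, 2 arrays against 2; adjusted p = 0.028 and 0.033 in limma), and at 48 h they differed by -0.28 ± 0.35 and -0.56 ± 0.30. Both were highest on the sucrose 24 h array, at 8.73 and 9.02, against 7.58 and 7.79 on the glucose 24 h array. Each of these 2 calls was lost when any 1 array was left out. With all arrays, both were also lost in the model that keeps each cultured array apart (adjusted p = 0.15 and 0.12 in limma).

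UGT78D2 (AT5G17050), the anthocyanidin glucosyltransferase gene that acts before UF3GT, was above the floor on 2 arrays only, sucrose 0 h (5.12) and sucrose 24 h (5.33), and differed by 0.10 ± 0.17 at 24 h. In flavonol decoration AT1G06000 had 2 probe sets that disagreed, with differences of -0.28 ± 0.32 and 1.12 ± 0.55 at 24 h and -1.14 ± 0.32 and 0.10 ± 0.55 at 48 h, of which only the value of -1.14 passed (adjusted p = 0.037 in limma; lost when any 1 array was left out). That call was also lost under 2 of the 6 alternatives with all arrays. UGT78D1 and UGT78D3 of that list and BAN, anthocyanidin reductase of the late list, stayed below the floor on all 6 arrays.

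Among the regulators HYH (AT3G17609), the homolog of the light-response factor HY5, read 8.23, 6.16 and 4.86 at 0, 24 and 48 h in sucrose and 7.0, 5.63 and 6.14 in glucose. It fell by 2.09 ± 0.61 at 48 h (SE, 2 arrays against 2; adjusted p = 0.042 in limma), a call lost when any 1 array was left out, and differed by -1.72 ± 0.61 at 24 h. With all arrays, the call of HYH at 48 h was lost under 2 of the 6 alternatives. AT1G23390 passed at neither time. APL3 (AT4G39210), a gene of ADP-glucose pyrophosphorylase in starch synthesis known to respond to sugar, read 7.13, 9.53 and 7.78 in sucrose and 7.34, 8.08 and 6.92 in glucose. It rose by 1.57 ± 0.27 at 24 h (adjusted p = 0.010 in limma; lost when any 1 array was left out) and differed by 0.11 ± 0.27 at 48 h. With all arrays, the call of APL3 at 24 h was lost under 1 of the 6 alternatives.

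**Figure D4:**
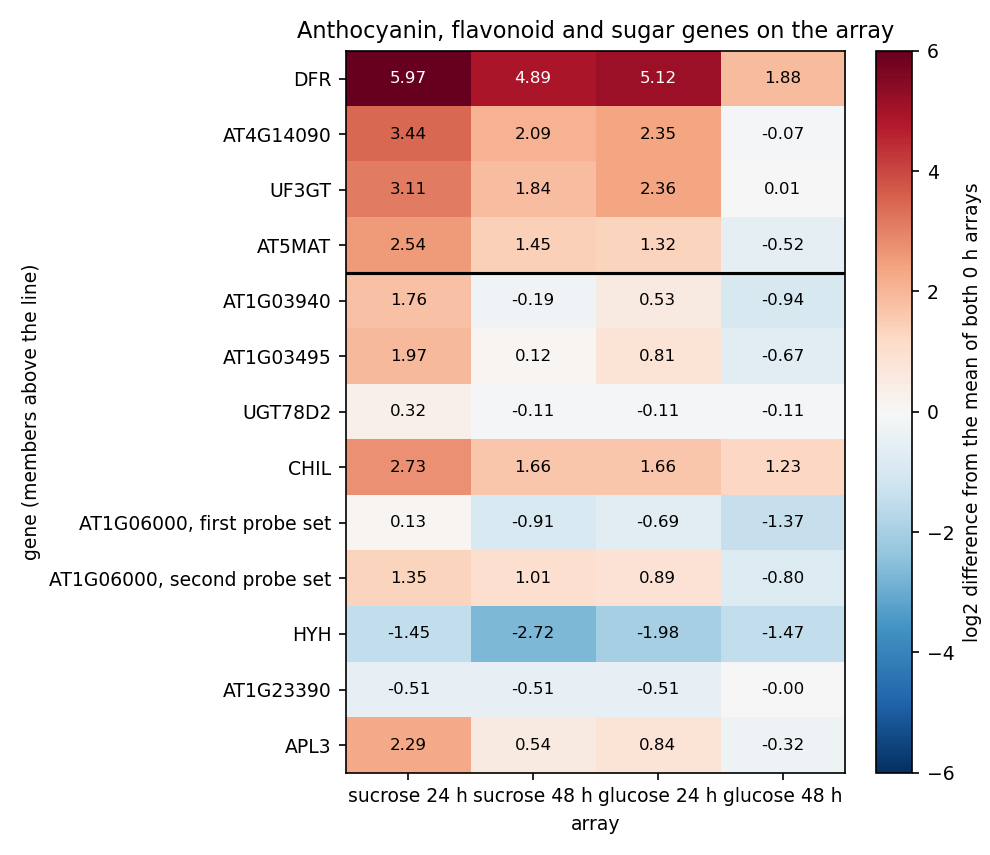
Log2 difference of each cultured array from the mean of both 0 h arrays, signals at the floor set to it, for the 4 genes (above the line) and the tested genes of the pathway, regulator and sugar lists (below). The sucrose 24 h column holds the highest value of every row except AT1G23390. For HYH all values are negative, and sucrose 24 h (-1.45) and glucose 48 h (-1.47) hardly differ.

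The UDP-glycosyltransferase family gives a setting for the glycosyltransferase genes. Of 56 single-gene probe sets with a UGT symbol, for 51 genes, 35 were tested, not counting UF3GT and AT4G14090, which carry other names. At 24 h 2 of the 35 rose and 17 fell, with a median of -0.90, beside 24.2% of all tested probe sets higher and 19.8% lower. None of the 35 had a larger difference than UF3GT or AT4G14090: the highest was UGT76B1 (2.14 ± 0.58; adjusted p = 0.034 in limma) and the lowest UGT85A2 (-5.10 ± 0.50; adjusted p = 0.0032 in limma). In sucrose minus glucose over the cultured arrays the family had a median of -0.02 and none of the 35 exceeded UF3GT or AT4G14090. At single times the order differed: in sucrose minus glucose at 24 h 4 of the 35 exceeded UF3GT and 2 exceeded AT4G14090, with UGT73C1 at 2.37. UGT73D1 (1.14) exceeded both genes at 48 h minus 0 h, and UGT76B1 (3.16) exceeded UF3GT (3.11) at sucrose 24 h minus 0 h. Of the 35, 5 exceeded UF3GT and 6 exceeded AT4G14090 at glucose 48 h minus 0 h. In sucrose minus glucose at 48 h the highest of the 35 was 0.32 (UGT87A2), beside 2.15 for AT4G14090 and 1.83 for UF3GT. The family was not tested against these genes as a group.

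A further probe set carries both AT4G14090 and its neighbour AT4G14100, whose annotated ends overlap in the RefSeq gene table of TAIR10.1, and was therefore not counted with the 4. It read 6.12, 4.81 and 5.41 at 0, 24 and 48 h in sucrose and 5.91, 5.54 and 6.11 in glucose, so it was lowest on the array where the probe set of AT4G14090 alone was highest. Which of the genes it reads cannot be told from the table, and the probe set of AT4G14090 alone may also take up signal of the overlap.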

How the data were processed

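Per the labels' protocols, total RNA was amplified with the Ovation system, labelled with biotin and hybridised. The authors deposited a table of log2 signals, with a column for each array and a row for each probe set; GCOS made it, per the submitters' processing notes. How background and normalization were handled is not given in the sources used here, and the log base was taken from the largest value (14.2). Amplification can change relative transcript levels.

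Of 38408 probe sets 98 controls were left out; 16722 had 1 gene, 759 several and 20829 were not listed. Symbols came from the RefSeq gene table of TAIR10.1 (16574 matched by gene identifier, 16670 with locus names). Each array was scaled to the common mean of trimmed means (2% at each end, linear scale), because these differed by over 5%. Signals were raised to the floor. The 25826 probe sets that exceeded it on 2 or more arrays entered limma 3.58.1 (R 4.3.3; intensity trend, two-sided, Benjamini-Hochberg at 0.05). The first model had 4 coefficients (a mean per time, 1 sugar term for cultured arrays; 2 residual degrees of freedom and 3.24 from the prior). The second had 5 (the 0 h mean, 1 per cultured array; 1 residual and 0.74 prior). Contrasts against 0 h share the 0 h arrays, assumed to hold no sugar effect. Folds given as "at least" are those where a signal was raised to its array's background control median. A fitted difference against a group wholly at the floor is also only a bound. The labels name no separate cultures, so p-values reflect the spread among these 6 arrays alone, possibly technical, and so few arrays limit the precision. The fit was tested on simulated data.

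The genes and lists were chosen with earlier results of these data known. The naming rule took the 4 genes, all list genes with a probe set of their own, and the 10 profiles of highest r (3 for each gene). Alternatives were other scalings, floors, an untrended fit, the other model and leaving out each array. Promoter motifs were planned and are not analysed here.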

Additional observations from a re-analysis of the deposited data

Results flagged for a closer look

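In 2 genes the differences between single arrays of 48 h and 0 h had opposite signs in the sugars. AT4G14090 differed by 2.15 (log2, against the floor) in sucrose and by -0.13 in glucose, and AT5MAT by 1.34 in sucrose and -0.41 in glucose. Neither glucose value has a direction: both genes were below the background control median on both glucose arrays, and that of AT4G14090 was 0 against the 0 h mean with signals as deposited. The difference of these signs was not tested on its own. The sugar difference at 48 h was 2.15 for AT4G14090 and 1.97 for AT5MAT (log2, 1 array against 1), and neither passed in limma. The difference itself leaves out the 0 h arrays, but its spread in that test comes from the 0 h pair and limma's prior over all tested probe sets.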

How the results depend on the processing

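In the model over all arrays the 4 genes kept their direction under every alternative in all 4 comparisons of time and sugar. The count of the 4 genes past the threshold at 24 h was 4 under each of the 6 alternatives with all arrays, and ranged from 0 to 4 with an array left out. At 48 h it was 1, and 2 with a floor at the 20th percentile or with no floor and no filter (DFR and UF3GT), and from 0 to 2 with an array left out; in the model of 5 coefficients the 1 call was UF3GT (adjusted p = 0.044 in limma) in place of DFR. Against 0 h within a sugar, no floor and no filter gave 4 (sucrose 24 h), 3 (glucose 24 h) and 1 (glucose 48 h), signals as deposited 3 and 2 (sucrose and glucose 24 h), and quantile normalization 2 (sucrose 24 h), each against 0. With an array left out the count was 2 in sucrose 24 h and 0 to 1 in glucose 24 h. The count of 2 in sucrose 48 h became 0 with a floor at the 20th percentile and without the intensity trend. In the sugar comparisons and from 24 to 48 h it stayed 0 under the alternatives run.

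Over all probe sets, 11368 passed at 24 h and 10852 at 48 h. With the model of 5 coefficients 5781 and 6183 passed, and with an array left out 0 to 6022 and 0 to 6516. With no floor and no filter 169 passed from 24 to 48 h, 4 between the sugars, 6909 and 7017 at 24 h in sucrose and glucose, and 8426 and 6622 at 48 h, where the fit as described gave 0 except 4424 in sucrose 48 h. Signals as deposited gave 4717 and 4818 at 24 h in sucrose and glucose and 1918 in glucose 48 h, and quantile normalization 2417 in sucrose 24 h. In sucrose 48 h, 0 passed with a floor at the 20th percentile or without the trend. With an array left out 2034 to 2490 passed in sucrose 24 h and 0 to 2506 in glucose 24 h. As deposited, the median difference of all probe sets was 0.36 at 24 h and 0.28 at 48 h, against 0.10 and 0.13 after scaling, with 8019 higher and 3881 lower calls at 24 h against 6248 and 5120. The causes were not tested.

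Some uncalled differences changed sign: the first probe set of AT1G06000 at 24 h (0.012 as deposited), and with an array left out AT1G03495 (-0.63 to 0.077), APL3 (-0.19 to 0.41), UGT78D2 (-0.33 to 0.10) and the second probe set of AT1G06000 (-0.57 to 0.78) at 48 h, and UGT78D2 at 24 h (-0.11 to 0.32). No paired analysis was possible because each group has 1 array and the labels give no replicate numbers. The second model could not be fitted without a 0 h array, since no residual degrees of freedom remain. Raising single-array signals to the background control median was chosen after seeing the data, and no direction changed where at least 1 of the arrays compared was above it.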
